A study of Sus scrofa with 32 samples.

Results

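The genes described are 47 collagens, laminins and other extracellular matrix genes of the fetal pig liver, with the enzymes that build and cut the matrix and their inhibitors. A gene was included where a probe set carried 1 symbol alone and that symbol began with COL and a digit, LAMA, LAMB, LAMC, MMP and a digit, TIMP and a digit, LOX (but not LOXHD), P4HA, FBN, FBLN or PLOD, or was DCN, LUM, BGN, FN1, SPARC, SPARCL1, FKBP10, SERPINH1 or POSTN. The array held 6765 genes named in this way, and 87 probe sets belonged to the 47. Each gene is given by its probe set with the highest mean over all arrays, and 34 of the 47 passed the filter on low values, which asks for a value above the array's 40th percentile in at least 5 arrays.

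Liver RNA of Pietrain fetuses was hybridised to 32 porcine expression arrays, 1 array per sample. The mothers were fed during gestation either a diet enriched in methylating micronutrients or a control diet, and the fetuses were sampled at 35, 63 or 91 days post coitum (dpc). The methyl-enriched diet had 5 arrays at 35 dpc, 6 at 63 dpc and 5 at 91 dpc, and the control diet had the same numbers. The fetuses came from 5 to 6 gilts at each age, and the text does not say whether that number is per diet. The labels used here tie no array to a gilt, so p-values measure the spread between these samples only and are too small where fetuses of a group share a gilt.

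The extracellular matrix of the liver is sparse. Fibrillar collagens give strength to the capsule and the portal tracts, basement membrane collagens and laminins lie beside vessels and ducts, and plasma fibronectin is secreted by hepatocytes. In liver most collagen is attributed to stellate cells and portal fibroblasts, which modify the chains in the endoplasmic reticulum, secrete them and leave them to be cross-linked outside the cell. Matrix metalloproteinases (MMPs) cut the matrix, and tissue inhibitors of metalloproteinases (TIMPs) block them.

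The values are log2 signals as deposited, from 2.20 to 16.6, with array medians between 3.84 and 4.23, and the scaling behind them is unknown. A value at or under its array's 40th percentile (2.74 to 2.93) is called near background. Spike-in controls parted the arrays into 18 with a large bioC minus bioB difference (1.39 to 1.83) and 14 with a small one (0.16 to 0.39), here called high-gap and low-gap arrays, a split found after the data were seen. Each group had 3 high-gap arrays, with 2 low-gap arrays at 35 and 91 dpc and 3 at 63 dpc. Between high-gap and low-gap arrays limma called 3691 of 15327 probe sets and 7 of the 34 matrix genes, the largest being MMP14 (-0.54, high-gap minus low-gap) and FKBP10 (0.48). Hepatocyte markers were abundant, with summed linear signals between 339974 and 486528, and all 8 cartilage and bone markers on the array failed the filter. In whole tissue, fewer cells of a type and less RNA per cell cannot be told apart.

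The 13 genes that failed the filter included collagens of skin, bone and vessel walls and enzymes known from inflamed tissue. They were COL3A1, COL5A2, COL2A1, COL11A1, COL10A1, COL7A1, LUM, MMP1, MMP3, MMP9, MMP13, MMP20 and TIMP4. MMP9, a gelatinase of white blood cells, stood at 2.20 in all 32 arrays. COL3A1, a collagen that forms mixed fibrils with type I collagen, reached 3.05 in its highest array and lay above the 40th percentile in 3 arrays. LUM, the keratan sulfate proteoglycan lumican, had 1 array above that level, a control array of 35 dpc at 3.99. Its single probe set and that of COL3A1 are the only ones the array names to these genes. A signal near background sets no level for the gene. COL1A1, COL4A1, COL6A1, COL18A1, P4HA1, PLOD2 and FBLN5 had no probe set named to them alone.

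The comparison of successive ages asks how the matrix genes changed as the fetal liver grew. Diets were averaged, limma was fitted over all 15327 tested probe sets, and a call is an adjusted p under 0.05 after Benjamini-Hochberg adjustment over all of them. At 63 dpc against 35 dpc 6 of the 34 tested genes were higher and 13 were lower, where 32.5% of all probe sets were higher and 28% lower. At 91 dpc against 63 dpc 10 were higher and 4 lower, with 29.5% and 29% among all. Over the whole span, at 91 dpc against 35 dpc, 11 were higher and 14 lower, with 40.8% and 39.1% among all. The 10 and the 11 both include MMP7 and SPARCL1, which passed the filter through their arrays of 91 dpc and so had to differ. The median log2 difference of the 34 was -0.06 in the first interval, where that of all probe sets was 0.05, and 0.00 in the second, where that of all was -0.03. Quantile normalization shifted the median of all probe sets over the whole span to -0.15, with 0.00 as deposited, and that of the 34 to -0.20. Both intervals use the 63 dpc arrays, and the span from 35 to 91 dpc uses the arrays of both. The shares among all probe sets given here are the ones to set beside each count by role or marker list below.

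**Figure D1:**
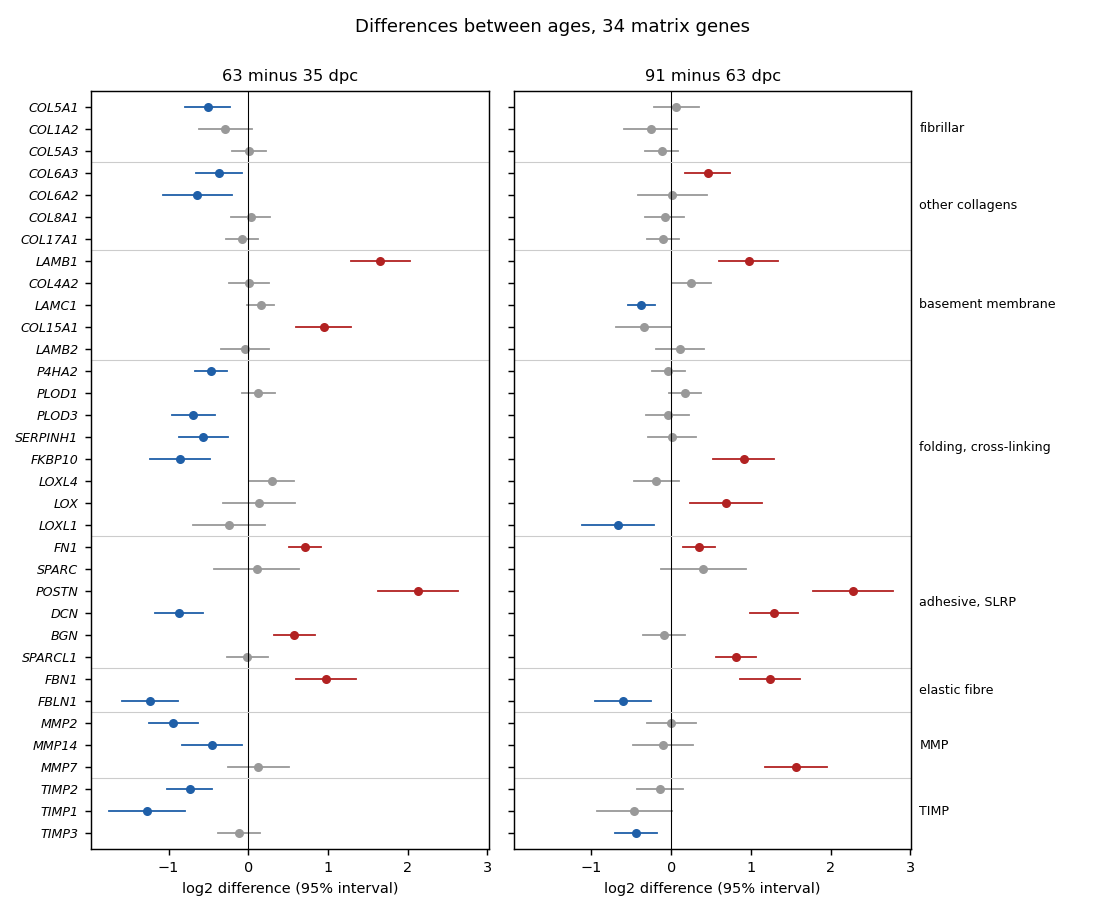
Log2 differences of the 34 tested matrix genes between ages, diets averaged, with 95% intervals (horizontal lines). Red points were called higher, blue points lower and grey points were not called (limma, adjusted p under 0.05). Rows are grouped by role, and the points farthest to the right in both panels are POSTN.

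Of the 3 fibrillar collagens that passed the filter, 1 was called in the first interval and 0 in the second. COL5A1, the collagen V chain that starts fibril assembly, had a median of 7.42 and a highest value of 7.96 at 35 dpc, then a median of 6.88 at 63 dpc (6.25 to 7.44) and of 7.02 at 91 dpc (6.70 to 7.19). It was lower at 63 than at 35 dpc by limma (log2 difference -0.51 ± 0.14 SE, adjusted p = 0.00232), with overlapping arrays, and by -0.44 ± 0.14 over the whole span (adjusted p = 0.00647). A second COL5A1 probe set moved by -0.54 and then by 0.38, both called, whereas the brighter one gave 0.06 in the second interval. COL1A2, the second chain of type I collagen, had medians of 5.46, 5.11 and 4.85 at the 3 ages and passed in neither interval (-0.29 and -0.26), although the first was called after quantile normalization (-0.55, limma adjusted p = 0.00608) and with the gap group as a block (adjusted p = 0.0248). It was lower at 91 than at 35 dpc (-0.55 ± 0.17, limma adjusted p = 0.0043), with ranges of 4.26 to 5.95 at 91 dpc and 4.91 to 6.18 at 35 dpc. The third, COL5A3, was near background in 24 of the 32 arrays.

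Of 4 other collagens, both tested chains of collagen VI, which makes beaded filaments around cells, were lower at 63 dpc. COL6A2 ran from 4.22 to 5.54 at 63 dpc and from 4.45 to 6.42 at 35 dpc (-0.64 ± 0.21, limma adjusted p = 0.0108) and stayed at a median of 4.72 at 91 dpc. COL6A3 had medians of 6.90, 6.65 and 7.09 at 35, 63 and 91 dpc. Its first difference was -0.37 ± 0.14 (limma adjusted p = 0.0261) and its second 0.46 ± 0.14 (adjusted p = 0.00637), so it was lower and then higher. The arrays of neighbouring ages overlapped for both genes. COL8A1, of vessel walls, and COL17A1, a transmembrane collagen of epithelia, were called in neither interval, and COL17A1 stood at 3.40 in 21 of 32 arrays.

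Of the 5 basement membrane genes 2 rose in the first interval, 1 of these rose again in the second, and 1 other fell. LAMB1, the beta-1 chain of laminin, had lowest, median and highest values of 7.66, 8.16 and 9.11 at 35 dpc, 8.93, 10.14 and 10.57 at 63 dpc, with 10.55, 10.91 and 11.54 at 91 dpc. It was 3.16-fold higher at 63 than at 35 dpc (log2 difference 1.66 ± 0.18, limma adjusted p = 1.14e-08) and 1.96-fold higher at 91 than at 63 dpc (0.97 ± 0.18, adjusted p = 3.71e-05). Every array of 91 dpc lay above every array of 35 dpc, while neighbouring ages overlapped. A dimmer LAMB1 probe set rose by 1.24 and then gave 0.57, which was not called. COL15A1, a collagen of the basement membrane zone, had medians of 5.87, 6.70 and 6.58, rising by 0.95 ± 0.17 in the first interval (limma adjusted p = 2.1e-05) with no call in the second (-0.35, adjusted p = 0.0795). LAMC1, the gamma-1 chain that pairs with LAMB1, ran from 7.70 to 8.21 at 91 dpc and from 8.05 to 8.53 at 63 dpc (-0.38 ± 0.08, limma adjusted p = 0.000268). The 3 other LAMC1 probe sets gave -0.34, -0.20 and -0.10 in that interval, none of them called. COL4A2, a chain of the type IV collagen network, had medians of 9.03, 8.95 and 9.08 and was called in neither interval, and neither was LAMB2.

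Among the 8 genes for collagen folding and cross-linking, 4 fell and 0 rose in the first interval, and 2 rose and 1 fell in the second. Of all probe sets 28% fell and 32.5% rose in the first interval, and 29.5% rose and 29% fell in the second. The 4 that fell act inside the cell on new collagen chains, as does PLOD1, which was not called in that interval (0.13). FKBP10, a prolyl isomerase and collagen chaperone, had lowest, median and highest values of 6.46, 6.95 and 7.68 at 35 dpc, 5.20, 6.14 and 6.61 at 63 dpc, with 6.26, 7.13 and 8.05 at 91 dpc. It fell by 0.85 ± 0.19 on the log2 scale (limma adjusted p = 0.000228) and rose again by 0.91 ± 0.19 (adjusted p = 0.000111), with overlapping arrays in both intervals. PLOD3, a lysyl hydroxylase and glycosyltransferase, ran from 7.93 to 8.84 at 63 dpc and from 8.51 to 9.44 at 35 dpc (-0.69 ± 0.13, adjusted p = 4.91e-05 by limma). SERPINH1, the collagen-specific chaperone HSP47, ran from 7.87 to 8.79 at 63 dpc and from 8.17 to 9.39 at 35 dpc (-0.56 ± 0.15, limma adjusted p = 0.00174). P4HA2, a prolyl 4-hydroxylase subunit, ran from 8.23 to 9.24 at 63 dpc and from 8.94 to 9.45 at 35 dpc (-0.47 ± 0.10, limma adjusted p = 0.000193). Unlike FKBP10, these 3 were not called in the second interval (-0.05, 0.01 and -0.04), and whether FKBP10 differs from them was not tested. A second P4HA2 probe set, by contrast, fell in the second interval (-0.78) and not in the first (-0.34).

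The lysyl oxidases, which start cross-links in collagen and elastin outside the cell, moved in different directions between 63 and 91 dpc. LOX had lowest, median and highest values of 2.36, 3.63 and 3.79 at 35 dpc and of 2.91, 3.75 and 4.09 at 63 dpc. At 91 dpc they were 3.28, 4.46 and 5.87 (0.69 ± 0.22 for 91 against 63 dpc, limma adjusted p = 0.0079). That call was lost in the high-gap arrays alone (0.61, limma adjusted p = 0.186). LOXL1, which is tied to elastic fibres, ran from 2.42 to 3.32 at 91 dpc and from 2.64 to 4.74 at 63 dpc (-0.67 ± 0.22, adjusted p = 0.0105 by limma), with 4 of 10 arrays of 91 dpc near background. The brightest LOXL4 probe set was not called between ages (0.29 for 63 against 35 dpc), whereas a dimmer one was lower at 63 than at 35 dpc (-0.23, limma adjusted p = 0.0198) and over the whole span (-0.33, adjusted p = 0.00134). PLOD1, a lysyl hydroxylase, was higher over the whole span only (0.30 ± 0.11, limma adjusted p = 0.0112), with medians of 8.95 at 91 dpc and 8.82 at 35 dpc. That call was lost when the probe sets of the gene were averaged (0.08, limma adjusted p = 0.625).

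The adhesive, matricellular and small leucine-rich proteins held the steepest rise. POSTN, periostin, which binds collagen and aids its cross-linking, had lowest, median and highest values of 4.86, 6.47 and 7.33 at 35 dpc, 7.43, 8.63 and 9.28 at 63 dpc, with 10.42, 10.65 and 11.32 at 91 dpc. No array of one age overlapped an array of another. POSTN was 4.37-fold higher at 63 than at 35 dpc (log2 difference 2.13 ± 0.25, limma adjusted p = 3.06e-08) and 4.87-fold higher at 91 than at 63 dpc (2.28 ± 0.25, adjusted p = 5.67e-09), or 21.3-fold over the whole span. A second, dimmer POSTN probe set, with a mean of 3.20, gave 0.18 in the first interval (not called) and 2.29 in the second.

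FN1, fibronectin, had lowest, median and highest values of 12.61, 13.27 and 13.53 at 35 dpc, 13.63, 13.85 and 14.01 at 63 dpc, with 13.91, 14.15 and 14.52 at 91 dpc. The arrays of 63 dpc all lay above those of 35 dpc (0.71 ± 0.10, limma adjusted p = 4.68e-07), and the further rise to 91 dpc was 0.35 ± 0.10 (adjusted p = 0.00285). A dimmer FN1 probe set rose by 1.74 and then by 1.09. DCN, the proteoglycan decorin, which coats collagen fibrils and binds TGF-beta, had medians of 8.51, 7.72 and 8.87. It fell by 0.87 ± 0.15 in the first interval (limma adjusted p = 1.02e-05) and rose by 1.29 ± 0.15 in the second (adjusted p = 1.6e-08), where all arrays of 91 dpc (8.36 to 9.53) lay above all of 63 dpc (6.99 to 8.23). BGN, the related proteoglycan biglycan, went the other way from DCN in the first interval, with 7.61 to 8.53 at 63 dpc and 7.10 to 7.97 at 35 dpc (0.58 ± 0.13, limma adjusted p = 0.000264), and was not called in the second (-0.09).

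SPARC, osteonectin, had the largest standard error between ages among the 34. Its medians were 12.03, 11.87 and 12.37 at 35, 63 and 91 dpc, its arrays of 35 dpc ran from 10.71 to 12.91, and it was not called (0.11 ± 0.26 and 0.40 ± 0.26). SPARCL1, the SPARC relative hevin, was near background in all 22 arrays of 35 and 63 dpc. At 91 dpc it ran from 2.27 to 4.56, with 5 of 10 arrays above background, and was at least 1.24-fold higher than at 63 dpc. These 5 arrays alone carried SPARCL1 through the filter, so its age difference is given as a description.

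The fibres around elastin gave 1 gene that rose and 1 that fell in both intervals. FBN1, fibrillin-1, the scaffold of microfibrils, had lowest, median and highest values of 5.30, 6.56 and 7.77 at 35 dpc, 6.98, 7.54 and 7.93 at 63 dpc, with 8.59, 8.81 and 9.01 at 91 dpc. It rose by 0.97 ± 0.18 (limma adjusted p = 4.81e-05) and by 1.24 ± 0.18 (adjusted p = 1.39e-06), and its arrays of 91 dpc lay above all others. A dimmer FBN1 probe set rose by 0.92 and then gave 0.41, which was not called. FBLN1, fibulin-1, a glycoprotein of elastic fibres and basement membranes, had lowest, median and highest values of 7.63, 8.60 and 8.83 at 35 dpc, 6.55, 7.20 and 7.67 at 63 dpc, with 6.21, 6.49 and 7.19 at 91 dpc. FBLN1 fell by 1.24 ± 0.17 (limma adjusted p = 5.66e-07) and by 0.61 ± 0.17 (adjusted p = 0.00328), a 3.59-fold lower level at 91 than at 35 dpc with no overlap of arrays.

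**Figure D2:**
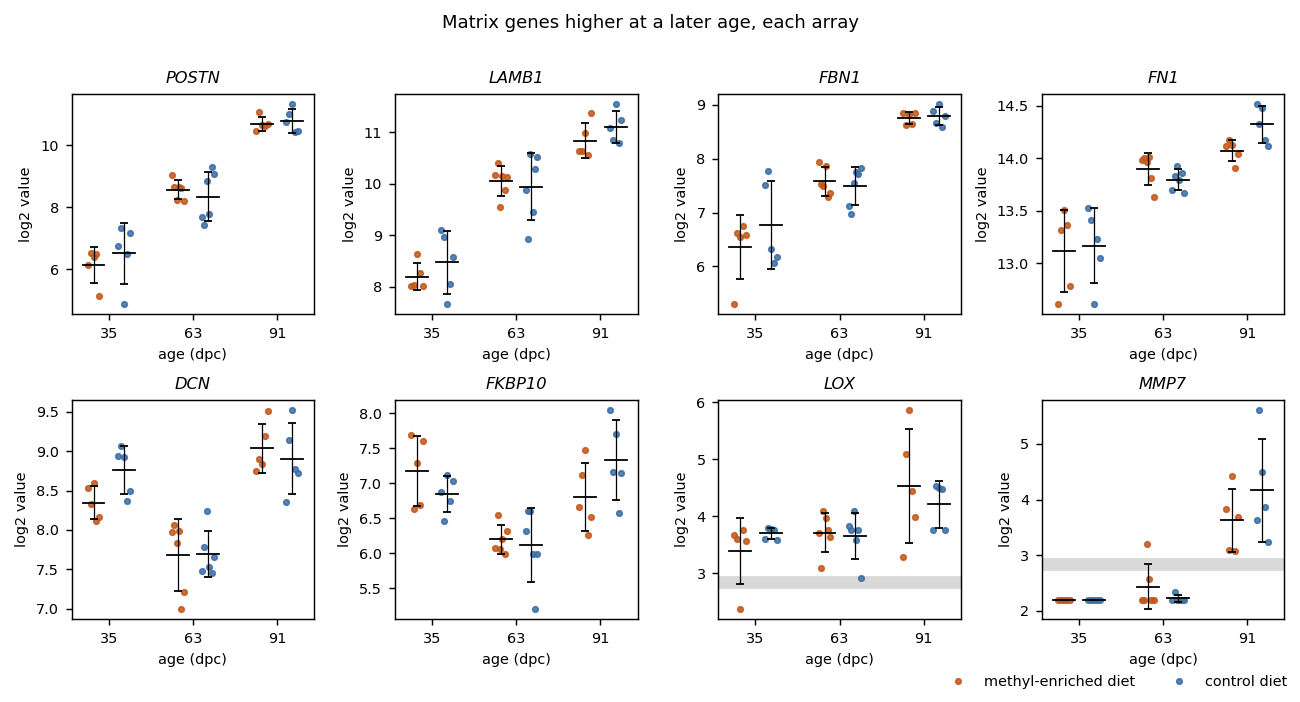
Log2 signal of 8 genes called higher in at least 1 interval, 1 point per array, at 35, 63 and 91 dpc, with the methyl-enriched diet (orange) left of the control diet (blue). Black bars are means with SD (n = 5, 6 and 5 per diet), the grey band is the range of the arrays' 40th percentiles, and vertical axes differ between genes. POSTN, LAMB1, FBN1 and FN1 climbed at both steps, DCN and FKBP10 were lowest at 63 dpc, and MMP7 left background at 91 dpc.

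Of the 8 MMPs 3 passed the filter. MMP2, gelatinase A, which cuts denatured collagen and type IV collagen, had lowest, median and highest values of 6.31, 6.76 and 7.03 at 35 dpc, 5.33, 5.93 and 6.06 at 63 dpc, with 5.21, 5.86 and 6.69 at 91 dpc. All arrays of 63 dpc lay below all of 35 dpc (-0.94 ± 0.15, limma adjusted p = 3.83e-06), with no further change called (0.00). MMP14, the membrane-bound protease that activates MMP2 with the help of TIMP2, ran from 2.53 to 4.87 at 63 dpc and from 4.17 to 4.82 at 35 dpc (-0.46 ± 0.18, adjusted p = 0.0325 by limma). MMP7, matrilysin, a small protease made by epithelial cells, was at 2.20 in all 10 arrays of 35 dpc and near background in 11 of 12 arrays of 63 dpc. At 91 dpc all 10 arrays were above background, from 3.08 to 5.62, at least 2.07-fold higher than at 35 dpc. MMP7 passed the filter through its arrays of 91 dpc, so this difference too is a description, and no fold is given against 63 dpc. In the pig gene table of Sscrofa11.1, MMP7 neighbours MMP20, which lay above the 40th percentile in 2 of 32 arrays, and DCN neighbours LUM.

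By their brightest probe sets all 3 tested inhibitors were lower at 91 than at 35 dpc, where 39.1% of all probe sets were lower. TIMP1 had lowest, median and highest values of 6.65, 7.39 and 8.60 at 35 dpc, 5.14, 6.41 and 7.21 at 63 dpc, with 5.10, 5.92 and 6.37 at 91 dpc. It fell by 1.27 ± 0.23 in the first interval (limma adjusted p = 2.66e-05), was not called in the second (-0.46 ± 0.23, adjusted p = 0.0882), and was 3.33-fold lower at 91 than at 35 dpc with no overlap of arrays. TIMP2, which also takes part in MMP2 activation, ran from 5.80 to 7.21 at 63 dpc and from 6.57 to 7.89 at 35 dpc (-0.74 ± 0.14, limma adjusted p = 4.66e-05), whereas a dimmer probe set gave -0.12, which was not called. Over the whole span the brighter probe set gave -0.88 and the dimmer one 0.01 (limma adjusted p = 0.974), so the TIMP2 probe sets disagree. TIMP3, the inhibitor that stays bound to the matrix, changed in the other interval, with 5.12 to 5.98 at 91 dpc and 5.82 to 6.50 at 63 dpc (-0.44 ± 0.13, adjusted p = 0.00412 by limma). TIMP4 did not pass the filter.

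**Figure D3:**
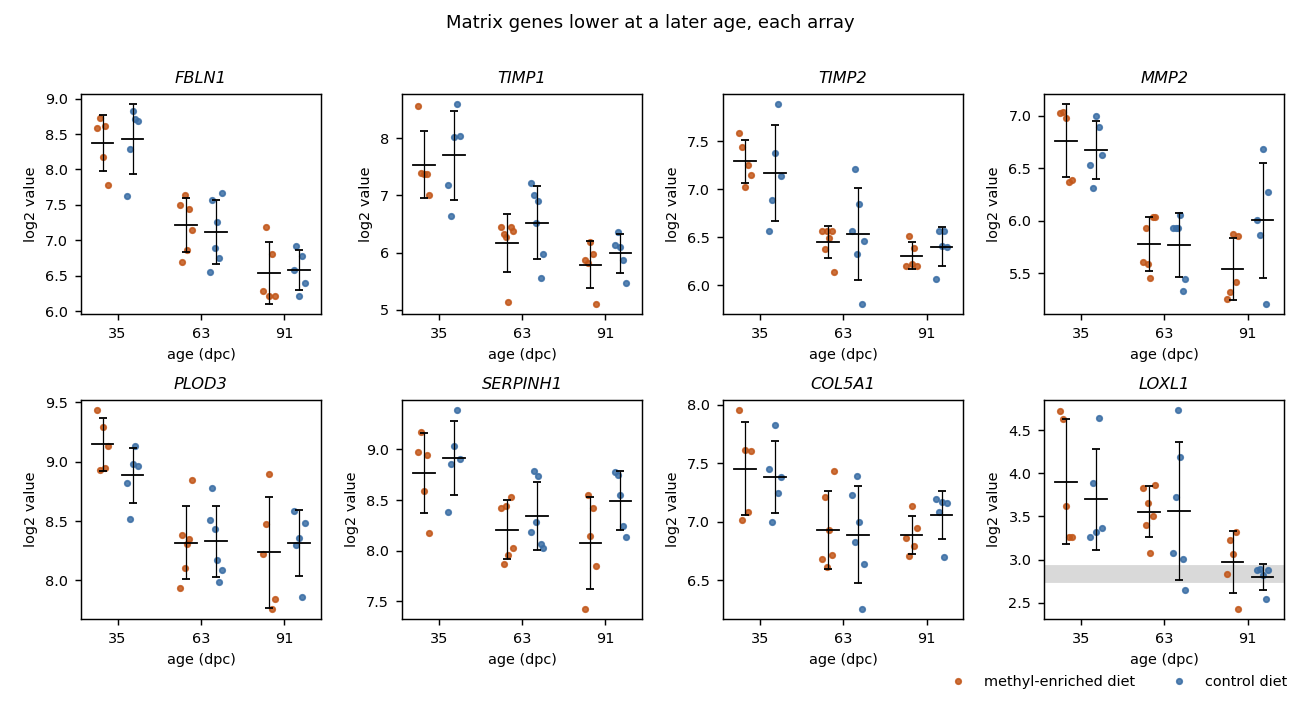
Log2 signal of 8 genes called lower in at least 1 interval, 1 point per array, at 35, 63 and 91 dpc, with the methyl-enriched diet (orange) left of the control diet (blue). Black bars are means with SD (n = 5, 6 and 5 per diet), the grey band is the range of the arrays' 40th percentiles, and vertical axes differ between genes. FBLN1 and TIMP1 ended below all their arrays of 35 dpc, MMP2 dropped between 35 and 63 dpc, and LOXL1 reached background in some arrays.

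Taking both intervals, 4 genes were higher in both (POSTN, LAMB1, FBN1 and FN1), 1 was lower in both (FBLN1), 3 were lower and then higher (COL6A3, FKBP10 and DCN), and 9 were lower in the first interval alone. Another 9 were called in neither interval. The share of all probe sets with each of these patterns was not counted, so the counts describe these genes only. The diets moved alike in sign for the leading genes. For 63 against 35 dpc POSTN gave 2.43 under the methyl-enriched diet and 1.82 under the control diet, and FBLN1 gave -1.16 under the methyl-enriched diet and -1.31 under the control diet. For 91 against 63 dpc DCN gave 1.36 under the methyl-enriched diet and 1.21 under the control diet, and FKBP10 gave 0.60 under the methyl-enriched diet and 1.21 under the control diet. Of the remaining 8, 3 were lower (LAMC1, TIMP3 and LOXL1) and 3 higher (LOX, MMP7 and SPARCL1) in the second interval alone, and 2 were higher in the first alone (COL15A1 and BGN). Of 40 further probe sets of these genes 14 passed the filter, and 10, 11 and 11 of them had the sign of the brightest one for 63 against 35, 91 against 63 and 91 against 35 dpc. In no case were both called in opposite directions. The calls between ages (19, 14 and 25) all had the same sign in high-gap and low-gap arrays alone. Both gap groups are parts of the arrays that made the calls, so the like signs are no independent support. These calls were all kept with the gap group as a block. However, 22 named age results lost their call in the 14 low-gap arrays alone and 7 in the 18 high-gap arrays alone. MMP14 at 63 dpc was -0.28 in the low-gap arrays (limma adjusted p = 0.158), and COL6A3 at 63 dpc passed in neither gap group alone (adjusted p = 0.296 for high-gap arrays and 0.116 for low-gap ones). The same held for TIMP3 (0.0794 for high-gap arrays, 0.0751 for low-gap ones, limma) and LOXL1 (0.086 for high-gap arrays, 0.106 for low-gap ones) at 91 against 63 dpc, and for DCN and LAMC1 over the whole span, 5 calls in all. Both calls were also lost on leaving out single arrays, 7 of 32 for MMP14 (limma adjusted p up to 0.0686) and 4 of 32 for COL6A3 (up to 0.0635).

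The comparison of diets asks whether the methyl-enriched gestation diet changed these genes at each age. It called 1 matrix gene, SPARCL1 at 91 dpc, and 0 at 35 dpc, 0 at 63 dpc and 0 for the average over ages. Among all probe sets 0.0391% were called at 35 dpc, 0% at 63 dpc, 0.0718% at 91 dpc and 0% for the average. At an unadjusted p under 0.05 limma had 0, 1 and 2 of the 34 genes at 35, 63 and 91 dpc and 1 for the average, against 933, 219, 1000 and 685 of all 15327. The test of whether the diet effect differs between ages called 0% of all probe sets and 0 matrix genes (660 and 1 at an unadjusted p under 0.05).

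SPARCL1 values at 91 dpc were 2.69, 2.51, 3.03, 2.61 and 2.27 under the methyl-enriched diet and 3.80, 3.03, 4.56, 2.79 and 3.44 under the control diet. The groups overlapped, and 4 of 5 methyl-diet arrays and 1 of 5 control arrays were near background. The difference of the deposited log2 values, methyl minus control, was -0.90 ± 0.18 (limma adjusted p = 0.0424), which is no measured fold for a group near background. SPARCL1 passed the filter through 5 arrays of 91 dpc, of which 4 were control arrays, the group where it is higher, so the p is no independent support. It was -1.27 in high-gap arrays (adjusted p = 0.0235) and -0.35 in low-gap arrays (limma adjusted p = 1), with a blocked adjusted p of 0.0272. A difference of the SPARCL1 diet effect between ages was not called (limma F test, adjusted p = 0.83). The call was lost without the filter (adjusted p = 0.0559), without the intensity trend (0.0533), after quantile normalization (0.0582, limma) and on leaving out any of 28 of the 32 arrays in turn (up to 0.147), so it sits at the edge of the threshold.

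Other matrix genes gave no call under the diet. LOXL4 at 35 dpc was 6.17, 6.17, 6.18, 5.98 and 6.17 under the methyl-enriched diet and 5.74, 5.91, 5.98, 5.82 and 5.28 under the control diet. Every methyl-diet array was above every control array, by a small margin. LOXL4 stood at about 6.17 in 9 of 32 arrays, with methyl-diet arrays of 35 dpc among them. The difference of 0.39 ± 0.20 did not pass (limma adjusted p = 0.843). DCN at 35 dpc was 8.53, 8.33, 8.60, 8.12 and 8.16 under the methyl-enriched diet and 8.94, 9.06, 8.93, 8.37 and 8.49 under the control diet (-0.41 ± 0.22, limma adjusted p = 0.852), with overlap. MMP14 at 63 dpc ran from 2.53 to 4.36 under the methyl-enriched diet and from 3.52 to 4.87 under the control diet (-0.60 ± 0.25, adjusted p = 1 by limma).

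At 91 dpc MMP2 and MMP7 had the next smallest p-values. MMP2 was 5.25, 5.32, 5.87, 5.42 and 5.85 under the methyl-enriched diet and 6.01, 5.86, 6.69, 5.21 and 6.27 under the control diet (-0.46 ± 0.22, limma adjusted p = 0.747). MMP7 was 3.84, 3.09, 4.43, 3.08 and 3.69 under the methyl-enriched diet and 3.63, 5.62, 4.49, 3.86 and 3.24 under the control diet (-0.54 ± 0.28, limma adjusted p = 0.814). Both pairs overlapped. At that age 26 of the 34 genes had a mean below that of the controls, 20 after quantile normalization. The share of all probe sets below the controls was not counted. The median difference of the 34 was -0.10 where that of all probe sets was -0.04. After quantile normalization it was -0.05 where that of all was 0.01. At 91 dpc the summed linear signal of 6 stellate cell and fibroblast markers ran from 1719 to 2276 under the methyl-enriched diet. Under the control diet it ran from 2288 to 2995, so the sums did not overlap, by a small margin. The mean log2 values of the same markers did overlap. They ran from 6.22 to 6.58 under the methyl-enriched diet and from 6.53 to 6.77 under the control diet. Their median difference was -0.33, but lower values were not particular to this list. The medians were -0.68 for bile duct, -0.33 for mesothelial, -0.25 for erythroid, -0.23 for endothelial and -0.11 for macrophage markers. They were -0.04 for smooth muscle and for neutrophil markers, 0.06 for hepatocyte and 0.22 for skeletal muscle markers. The diet called 0 of the 5 tested stellate cell and fibroblast markers. The part of any cell type in the matrix gene differences was not tested.

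For genes that changed with age the 95% intervals of the diet difference bound what could have been missed. At 91 dpc they ran from -0.54 to 0.04 for FN1, from -0.84 to 0.65 for POSTN and from -0.59 to 0.25 for COL5A1. At 35 dpc POSTN ran from -1.13 to 0.36. Standard errors of the diet difference at 35 and 91 dpc lay between 0.12 and 0.39 over the 34 genes, and the number of arrays limits this precision.

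**Figure D4:**
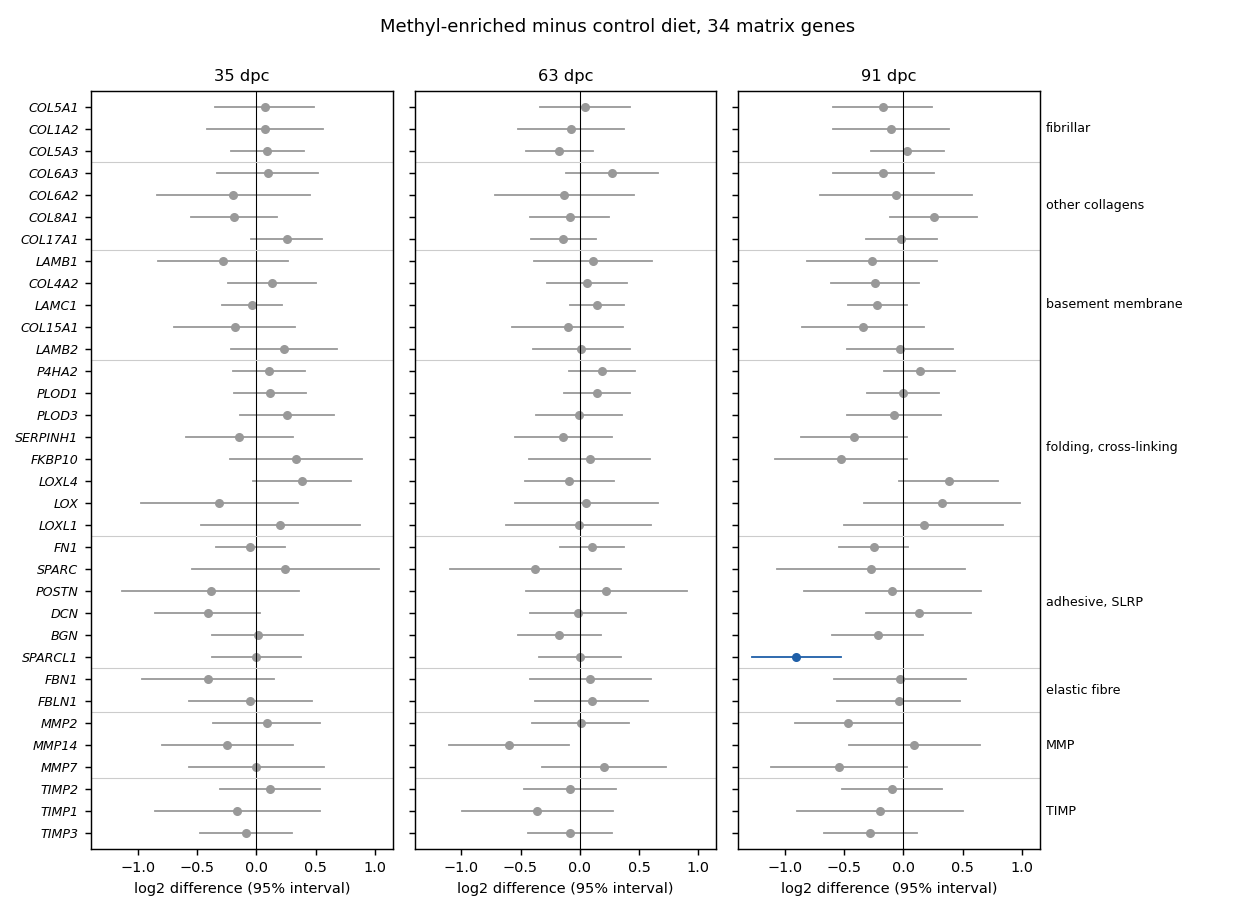
Log2 differences of the 34 tested matrix genes, methyl-enriched minus control diet, at 35, 63 and 91 dpc, with 95% intervals (horizontal lines). The blue point is SPARCL1 at 91 dpc (-0.90), the 1 gene called (limma, adjusted p under 0.05), and grey points were not called.

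Other genes of matrix biology were read from lists that were not drawn from the 47. Of 23 tested other matrix genes 8 were higher and 5 lower at 63 than at 35 dpc, then 7 higher and 7 lower at 91 than at 63 dpc. MGP, matrix Gla protein, which blocks calcification of soft tissue, rose at both steps much as POSTN did, with means of 4.20, 6.24 and 8.60 at 35, 63 and 91 dpc (log2 differences 2.04 ± 0.22 and 2.37 ± 0.22, limma). CRTAP, a partner of the collagen prolyl 3-hydroxylase, fell by 1.11 ± 0.12 and 0.92 ± 0.12. VTN, vitronectin, an adhesive plasma protein made by hepatocytes, rose by 1.10 ± 0.09 and was then not called (0.20). Of 11 tested collagen and laminin receptors 3 were higher and 5 lower, then 2 higher and 4 lower, and ITGB1, the shared beta-1 integrin chain, rose by 1.40 ± 0.18 and 1.10 ± 0.18. In the same list CD47, a receptor of thrombospondin, fell by 0.47 and 0.46, and ITGB3, the beta-3 integrin chain, fell in the second interval (-1.32). Of 10 tested genes of TGF-beta and PDGF signalling 3 were higher and 0 lower, then 3 higher and 1 lower. The 3 that rose in both were the receptors ACVR1 (1.24 and 0.58) and TGFBR1 (1.40 and 1.16) and the signal carrier SMAD4 (0.88 and 0.48). At 91 against 35 dpc 3 of the 10 were higher and 3 lower, with a median log2 difference of -0.03, so the list did not move in 1 direction. The diet called 0 genes of these 3 lists at any age.

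Markers of the cells that could carry matrix RNA moved with age as well, and their part in the matrix results was not tested. Of 6 stellate cell and fibroblast markers on the array 5 passed the filter, and 0 were higher and 1 lower at 63 dpc, with 0 and 0 called at 91 against 63 dpc. Their summed linear signal had medians of 2596, 2463 and 2282 at 35, 63 and 91 dpc, with ranges of 2104 to 3206, 1977 to 2801 and 1719 to 2995, and none of the 6 was near background throughout. The receptor PDGFRB, a defining stellate cell marker, gave -0.09 and -0.06, neither called. The member that fell at 63 dpc was THY1 (-0.39, limma adjusted p = 0.0398).

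Of 6 smooth muscle and myofibroblast markers 1 was higher and 4 lower at 63 dpc, then 1 higher and 1 lower at 91 dpc. CALD1, caldesmon, which non-muscle cells also make, rose by 1.80 and 1.35, whereas CNN1, calponin, fell by 1.26 in the first interval and MYL9, a myosin light chain, fell by 0.31 and 0.54. The summed signal of the 6 had medians of 3298, 3214 and 5445. Over the whole span CALD1 was the 1 member called higher (3.14), while ACTG2 (-2.17), CNN1 (-1.23), ACTA2 (-0.92) and MYL9 (-0.86) were lower. Of 9 tested endothelial markers 3 were higher and 0 lower, then 2 higher and 2 lower. The receptor TEK rose by 1.74 and 1.16 and PECAM1 by 0.53 and 0.40, while VWF, von Willebrand factor, fell in the second interval (-1.76). The summed endothelial signal had medians of 1306, 1791 and 1961.

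Markers of blood-forming cells, which fill the fetal liver, also moved with age. The summed erythroid signal had medians of 51687, 30543 and 11135 at 35, 63 and 91 dpc, with 5 of 7 markers lower and 1 higher in each interval. Macrophage and Kupffer cell markers summed to medians of 3133, 3236 and 5448, with 1 of 7 higher and 1 lower, then 4 higher and 1 lower, and neutrophil markers to 2779, 4225 and 2159, with 5 of 5 higher and then 5 of 5 lower. Skeletal muscle markers summed to medians of 2385, 1569 and 3517, with 0 of 4 tested higher and 1 lower, then 1 higher (TNNI2, 3.29) and 1 lower (TNNI1, -3.00). Of 3 tested bile duct markers 1 was higher and 2 lower, then 2 higher and 0 lower. The median log2 difference of the 3 was -0.76 and then 0.71. At 91 against 35 dpc 1 was higher and 1 lower, with a median of -0.18. EPCAM was the 1 that rose in the first interval (2.54), and it rose again in the second. CFTR and SOX9 stayed near background in all arrays. Of the 2 mesothelial markers on the array the 1 tested, KRT18, which hepatocytes and duct cells share, fell by 0.57 and 0.45. Of 10 hepatocyte markers 6 were higher and 0 lower at 63 dpc, then 3 and 3 at 91 dpc.

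**Figure D5:**
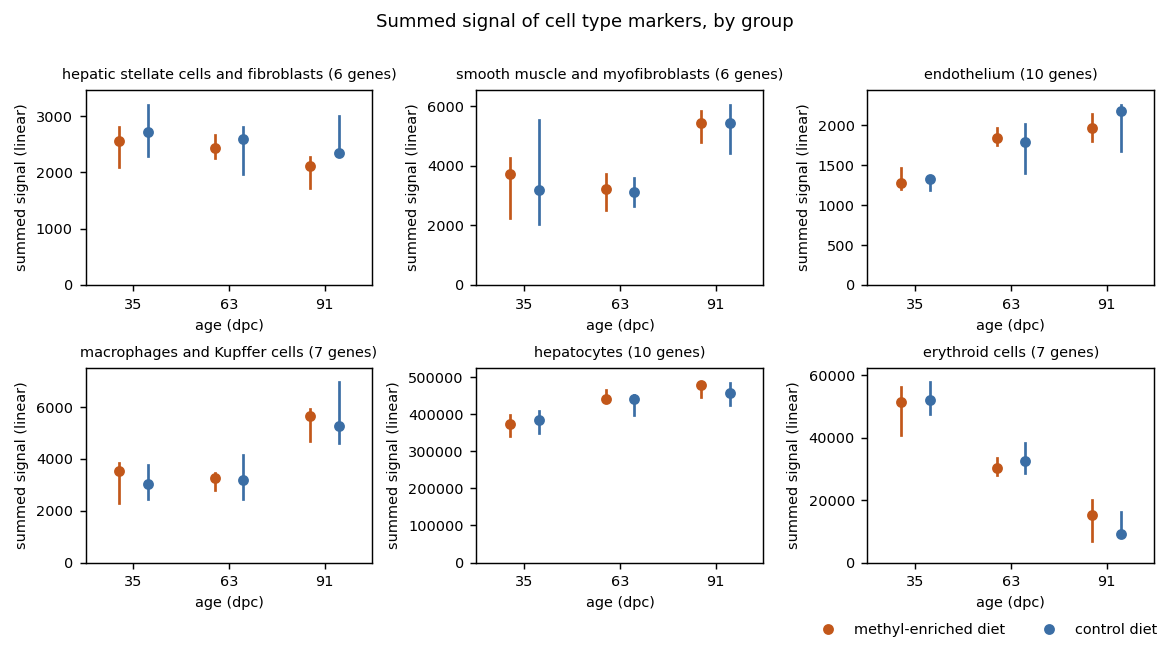
Summed linear signal of the markers of 6 cell types at 35, 63 and 91 dpc, with the methyl-enriched diet (orange) left of the control diet (blue). Points are medians over the 5 or 6 arrays of a group and vertical lines run from the lowest to the highest array. The stellate cell and fibroblast sum stayed between 1719 and 3206, and the erythroid sum dropped at each step.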

How the data were processed

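Each probe set and array has a single log2 value as deposited. Per the labels' protocols, TRI Reagent extraction was followed by DNase digestion and an RNeasy clean-up before biotin-labelled cRNA was made. The submitters' processing notes name GCOS 1.1.1 and give it no role. The summarisation and normalization are not given in the sources used here, and values were used as deposited. Gene names are those of the array annotation.

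Of 24123 probe sets, 124 controls were set aside, and 15327 lay above their array's 40th percentile in at least 5 arrays. Files were read with data.table (version 1.17.8) in R 4.3.3. Group means of the 6 groups came from limma 3.58.1 with an intensity trend, and p-values were adjusted over all probe sets tested. Where a group was near background in every array, a fold is given as a lower bound, with that group's arrays set at their 40th percentiles. Summed marker signals are sums of antilogged values. The fit was tested on simulated data. Figures were drawn with matplotlib 3.10.9.

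The genes, their roles and all lists were chosen with earlier results of these data known. Named genes are, per interval, up to 10 called higher and 10 lower, per diet contrast those called or the 3 with the smallest p, 2 per role, 29 fixed names that are on the array, and 3 of each other list. COL5A3, COL8A1 and LAMB2 are named beyond this rule to account for every gene tested, and PDGFRB as a defining marker and ACTA2 and ACTG2 beside their list's sum, after their values were seen.

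Alternatives were no trend, no filter, a 60th percentile filter, quantile normalization, array weights, the mean of a gene's probe sets, the gap group as a block or each alone, a threshold of 0.10, and leaving out each array. Replicate numbers only name arrays and pair nothing.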

Additional observations from a re-analysis of the deposited data

Results flagged for a closer look

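Among 186 groups of 31 genes, 22 had a highest or lowest array set apart from the others by Dixon's criterion. Chance meets it in about 1 in 20 groups, a rate that does not hold for groups with repeated values. The 186 also count groups whose arrays all held 1 value, such as MMP7 at 35 dpc, which could not be tested. The widest gaps were those of FBN1, LOX, TIMP1 and TIMP3. FBN1 in methyl-diet 35 dpc replicate 1 was 5.30, with the nearest array at 6.55. In the same array TIMP1 was 8.56, with the nearest at 7.39, and TIMP1 in methyl-diet 63 dpc replicate 4 was 5.14, with the nearest at 6.28. TIMP3 in control 35 dpc replicate 3 was 6.93, with the nearest at 6.11, and LOX in methyl-diet 35 dpc replicate 3 was near background at 2.36, with the nearest at 3.56.

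Of the collagens, COL4A2 stood apart in control 63 dpc replicate 5 (8.22) and in methyl-diet 91 dpc replicate 3 (9.51), COL1A2 in methyl-diet 35 dpc replicate 3 (5.16), COL5A1 in control 91 dpc replicate 4 (6.70) and COL6A2 in methyl-diet 91 dpc replicate 1 (4.22). COL17A1 did so in control 35 dpc replicate 3 (3.66), methyl-diet 63 dpc replicate 6 (3.65) and control 91 dpc replicate 2 (3.54), each beside arrays that repeat one value. MMP14 was low in control 35 dpc replicate 1 (4.20) and methyl-diet 91 dpc replicate 1 (3.46), BGN in control 63 dpc replicate 5 (7.99), LOXL1 in control 91 dpc replicate 4 (2.54) and LOXL4 in methyl-diet 35 dpc replicate 4 (5.98). Near background, MMP7 in control 63 dpc replicate 2 (2.35) and SPARCL1 in control 35 dpc replicate 2 (2.26), control 63 dpc replicate 6 (2.20) and methyl-diet 63 dpc replicate 5 (2.20) were set apart by very small amounts.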

How the results depend on the processing

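Of the results for named genes under the alternatives, 4270 kept their side of the threshold, 79 lost a call and 38 gained one. The sign differed in 73 values of 18 results that were not called, and in 0 values of called results. In the 14 low-gap arrays alone, a fit with fewer samples, 91 against 35 dpc had 7 higher and 8 lower (11 and 14 with all arrays), 63 against 35 dpc had 6 lower (13) and 91 against 63 dpc had 2 lower (4). The single diet call, SPARCL1 at 91 dpc, became a count of 0 without the trend, without the filter, at the 60th percentile filter, where it was not tested, after quantile normalization, in low-gap arrays alone and with the mean of a gene's probe sets, and 0 to 1 on leaving out each array. The cause was not tested. Other counts stayed within 1.5 times. With each array left out, 63 against 35 dpc had 6 to 7 higher and 11 to 13 lower, 91 against 63 dpc 10 to 11 higher and 4 to 5 lower, and 91 against 35 dpc 11 to 13 higher and 13 to 14 lower. COL6A3 at 63 dpc lost its call without control 35 dpc replicate 3, methyl-diet 35 dpc replicate 4 or control 63 dpc replicates 5 or 6 (limma adjusted p 0.0520 to 0.0635). MMP14 at 63 dpc lost it without control 35 dpc replicates 3 or 4, methyl-diet 35 dpc replicates 2 or 4, control 63 dpc replicate 3 or methyl-diet 63 dpc replicates 2 or 6 (0.0502 to 0.0686, limma), and without the filter (0.0541). TIMP1 gained a call at 91 against 63 dpc without control 63 dpc replicate 5 or methyl-diet 63 dpc replicate 4 (0.0316 to 0.0335, limma), and COL1A2 without control 91 dpc replicate 2 (0.0227). No paired analysis was possible because the labels give no numbers that tie arrays of different groups together. Values near background limit MMP7, SPARCL1, LOXL1 and COL5A3. A single value, within 0.005, also recurred in 9 of 32 arrays for LOXL4, 8 for MMP14 and 11 for COL8A1. For PLOD1, TIMP2, TIMP3, LOX and LAMB2 it recurred in 7 each, and the cause was not tested.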
